A study of Arabidopsis thaliana with 12 samples.

Results

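The WRKY transcription factors of Arabidopsis were followed in seedlings germinated for 5 days in a water stress medium (WSM) or in a control medium (NM). The family was taken as a list of 60 WRKY loci, listed by gene name, and all 60 carry that name in the reference annotation as the symbol or, for WRKY1, WRKY16 and WRKY44, as a synonym. Of these, 51 were listed with read counts in both deposited tables and 9 in neither. The 51 stand among 19714 genes listed in both tables. The list may not hold every WRKY gene, so family and group totals cover its loci alone. In the 51 measured members, 16 rose in WSM in the atg5 line and 14 in wild type, 13 of them shared, and 0 fell in either genotype by the edgeR fit of all libraries. The background was 7.86% of all genes called in atg5 and 5.89% in wild type. Some other fits called 1 to 3 members lower.

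There were 4 groups of whole seedlings. The atg5 line, in the Col-0 background and carrying the SALK_020601C insertion, was represented by 3 libraries from WSM (numbered 1, 2 and 3) and 2 from NM (1 and 3). Wild-type Col-0 was represented by 2 libraries from WSM (3 and 4) and 3 from NM (2, 3 and 4). All groups received 0.5x Murashige medium with 0.5% sucrose, and WSM also held 2.5% glycerol and 0.5% alginic acid. ATG5 is a core protein of autophagy, the pathway that delivers cell contents to the vacuole. A single insertion line stands for its loss, and a count over the ATG5 gene does not check the insertion. The genotypes were compared within each medium and the media within each genotype. This asks how expression differs between WSM and NM and whether the atg5 line differs. Glycerol and alginic acid were present in WSM alone and always together, so water deficit cannot be told apart from these additions.

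Library totals over the genes in both tables ran from 8923025 to 23993704 counts, of which 19.1% to 65.6% lay in genes of the ribosomal RNA regions. Counts outside these regions came to 3070467 in atg5 WSM 1, the shallowest library, and to between 7356822 and 16605560 in the remaining libraries. The libraries labelled atg5 were not alike at PREP1, a peptidase gene on chromosome 3. It had 349, 4 and 2412 counts in atg5 WSM 1, 2 and 3 and 2 and 0 counts in atg5 NM 1 and 3, and every wild-type library had between 753 and 2668. At 68.8 and 94.7 CPM (counts scaled to the library total), atg5 WSM 1 and 3 lay within the wild-type range of 61.6 to 106 CPM. Whether all libraries labelled atg5 have the same genotype is therefore in doubt, and this bears on every atg5 value and genotype difference below. Leaving out atg5 WSM 1 and 3 leaves atg5 WSM 2 alone in its group, so the spread then comes from the other groups. Calls made that way cannot settle this doubt. The atg5 WSM values given below without atg5 WSM 1 and 3 rest on atg5 WSM 2. Seedling leaf transcripts were abundant throughout, with RBCS1A at 3176 to 6882 CPM. LHCB1.3, also of leaves, was less even, at 3351 and 4037 CPM in atg5 NM and 7927 to 8920 CPM in wild-type NM. That log2 difference was -1.19 ± 0.43 (SE), not called (edgeR adjusted p = 0.2455). In atg5 all WSM libraries of LHCB1.3 stood above NM, by 1.03 ± 0.43, also not called (edgeR adjusted p = 0.1614). Nothing in the labels says that replicates came from separate cultures, so p-values measure the spread between these libraries, which may be technical.

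WRKY proteins are plant transcription factors that bind W-boxes, short promoter elements with the core TTGAC, through a domain that contains the WRKYGQK amino acid signature and a zinc finger. Group I proteins carry a pair of such domains, group II a single one in 5 subgroups (IIa to IIe), and group III a single one with a different zinc finger. Many members respond to pathogens, wounding, senescence and abiotic stress, several are phosphorylated by mitogen-activated protein (MAP) kinases, and many WRKY genes have W-boxes in their own promoters.

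The signature can be read in the coding sequence. Its 7 codons (21 bases) were found in frame at 70 places in the 60 members. Of the 12 group I members, 10 held a pair of signatures, and WRKY10 and WRKY19 held 1 each, like the members of the other groups. The sixth codon, in capitals, is CAA or CAG (glutamine) in 68 of the 70 signatures and AAG (lysine) in WRKY50 and WRKY51, a pair of group IIc relatives that behaved unlike each other in WSM. The lines show WRKY33 (first signature at chr2:16109358-16109378, plus strand; second at chr2:16109982-16110002, plus strand), WRKY40 (chr1:30384789-30384809, plus strand), WRKY70 (chr3:20909760-20909780, minus strand), WRKY51 (chr5:25908864-25908884, plus strand) and WRKY50 (chr5:9147579-9147599, minus strand). They were read from the RefSeq genome TAIR10.1.
WRKY33 first: tggagaaagtacggaCAAaaa
WRKY33 second: tggagaaaatacggcCAGaaa
WRKY40: tggaggaaatatggaCAGaaa
WRKY70: tggaggaaatatggaCAAaag
WRKY51: tggaggaagtatggcAAGaaa
WRKY50: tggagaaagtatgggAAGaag

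The 300 bases before the annotated gene start are shown for 5 members that rose together in both genotypes. They are WRKY33 (chr2:16107935-16108234, plus strand), WRKY30 (chr5:8154711-8155010, minus strand), WRKY40 (chr1:30383261-30383560, plus strand), WRKY53 (chr4:12393983-12394282, minus strand) and WRKY18 (chr4:15382477-15382776, plus strand). Capitals mark the W-box core, TTGAC on the strand shown or GTCAA where the core lies on the other strand. WRKY33 and WRKY30 hold 3 cores each, WRKY40 and WRKY53 hold 2 each, and the window of WRKY18 holds 0. Counted from the gene start, the cores begin at -291, -95 and -31 in WRKY33 and at -124, -68 and -60 in WRKY30.
WRKY33: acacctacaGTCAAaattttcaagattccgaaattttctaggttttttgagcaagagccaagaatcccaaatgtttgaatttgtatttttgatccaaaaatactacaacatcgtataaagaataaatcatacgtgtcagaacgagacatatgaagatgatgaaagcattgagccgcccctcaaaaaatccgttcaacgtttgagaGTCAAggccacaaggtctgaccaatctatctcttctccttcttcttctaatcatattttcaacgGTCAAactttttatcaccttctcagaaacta
WRKY30: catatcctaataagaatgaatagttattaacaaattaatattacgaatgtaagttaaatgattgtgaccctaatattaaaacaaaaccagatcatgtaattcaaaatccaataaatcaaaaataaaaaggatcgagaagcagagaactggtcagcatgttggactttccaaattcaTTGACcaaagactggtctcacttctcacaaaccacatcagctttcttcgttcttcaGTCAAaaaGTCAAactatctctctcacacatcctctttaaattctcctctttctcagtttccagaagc
WRKY40: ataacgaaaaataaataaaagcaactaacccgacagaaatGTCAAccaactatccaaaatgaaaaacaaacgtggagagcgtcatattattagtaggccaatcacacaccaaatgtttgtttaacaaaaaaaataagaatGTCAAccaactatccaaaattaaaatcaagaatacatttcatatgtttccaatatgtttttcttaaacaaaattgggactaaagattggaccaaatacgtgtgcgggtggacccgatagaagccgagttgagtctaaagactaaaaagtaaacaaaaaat
WRKY53: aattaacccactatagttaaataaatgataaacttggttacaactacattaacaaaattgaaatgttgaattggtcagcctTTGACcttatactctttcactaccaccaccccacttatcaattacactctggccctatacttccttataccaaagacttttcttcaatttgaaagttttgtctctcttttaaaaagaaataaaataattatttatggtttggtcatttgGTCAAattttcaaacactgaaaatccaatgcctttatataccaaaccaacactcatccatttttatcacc
WRKY18: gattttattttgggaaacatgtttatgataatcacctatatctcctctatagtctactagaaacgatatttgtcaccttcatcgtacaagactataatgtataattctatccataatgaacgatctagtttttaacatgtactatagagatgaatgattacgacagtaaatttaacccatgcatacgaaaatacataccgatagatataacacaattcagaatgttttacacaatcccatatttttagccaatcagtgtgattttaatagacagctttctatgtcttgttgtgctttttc

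The 51 measured members together took a larger share of the transcripts in WSM. The 51 members summed to 1075 to 1264 CPM in atg5 WSM libraries, against 382.0 to 428.9 CPM in atg5 NM libraries. In wild type the sum was 989.8 to 1202 CPM in WSM and 368.5 to 387.6 CPM in NM. Most of this difference lay in the 13 members called in both genotypes, which made up 60.7% to 74.1% of the family's CPM in atg5 WSM and 23.2% to 25.3% in atg5 NM, and 69.0% to 75.2% in wild-type WSM and 27.0% to 31.2% in wild-type NM. The other 38 members summed to 327.1 to 422.5 CPM in atg5 WSM, 293.4 to 320.4 in atg5 NM, 297.6 to 307.2 in wild-type WSM and 263.5 to 269.0 in wild-type NM. These sums are a description, since the 13 were picked by their response. In RNA from whole seedlings, fewer cells of a type and less RNA per cell cannot be told apart.

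In atg5, 16 of 51 members (31.4%) were called higher in WSM and 0 lower, where a call is an adjusted p under 0.05 from the edgeR quasi-likelihood test over all genes. Of all 19714 genes, 7.86% were called, 5.22% higher and 2.64% lower. The members' median log2 fold change was 0.53, against -0.02 over all genes, and 38 of the 51 were positive. In wild type 14 of 51 (27.5%) were called higher and 0 lower, against 5.89% of all genes called, 3.27% higher and 2.62% lower. The median was 0.52, against 0.02 over all genes, and 39 were positive. Every WSM library stood above every NM library for 25 members in atg5, where 16.2% of all genes did so, and below for 5 (16.6% of all genes). For wild type this held for 31 members above (28.8% of all genes) and 6 below (28%). The counts cover the listed members alone. In each table at least 2 libraries exceeded 1 CPM of the unscaled total for every gene, so a gene that is low in NM is listed through WSM. On the TMM scale used here, WRKY28, WRKY30, WRKY38, WRKY51 and WRKY54 were at or under 1 CPM in every NM library of both genotypes, and WRKY49 and WRKY75 in those of atg5.

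A fit of the 5 wild-type libraries alone called 24 members higher and 3 lower, where 14.1% and 15.3% of all genes were called. The 13 members gained were WRKY2, WRKY7, WRKY20, WRKY25, WRKY26, WRKY29, WRKY39, WRKY44, WRKY48 and WRKY72, higher, and WRKY14, WRKY47 and WRKY65, lower. A fit of the 5 atg5 libraries alone called 13 higher and 0 lower, where 1.58% and 0.0406% of all genes were. With atg5 WSM 1 and 3, which have PREP1 counts, left out there were 17 calls in atg5 (6.24% of all genes) and 18 in wild type (14.3%). With the 2 libraries of highest rRNA-region share left out there were 18 in atg5 (9.99%) and 14 in wild type (4.12%). DESeq2 called WRKY3 lower in atg5, where it called 4.96% of all genes lower, and WRKY14 lower in wild type (5.95%). Under all 19 settings tried, 12 of the 13 shared members were called in both genotypes, and WRKY11 was the exception. The markers of seedling roots moved in the same comparison. TIP2;3, a root aquaporin, fell in both genotypes, by 0.93 on the log2 scale in atg5 and by 1.72 in wild type, and CASP1, of the root endodermis, fell by 1.10 in wild type and had -0.45 in atg5, not called. Their part in the family's values was not tested.

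**Figure D1:**
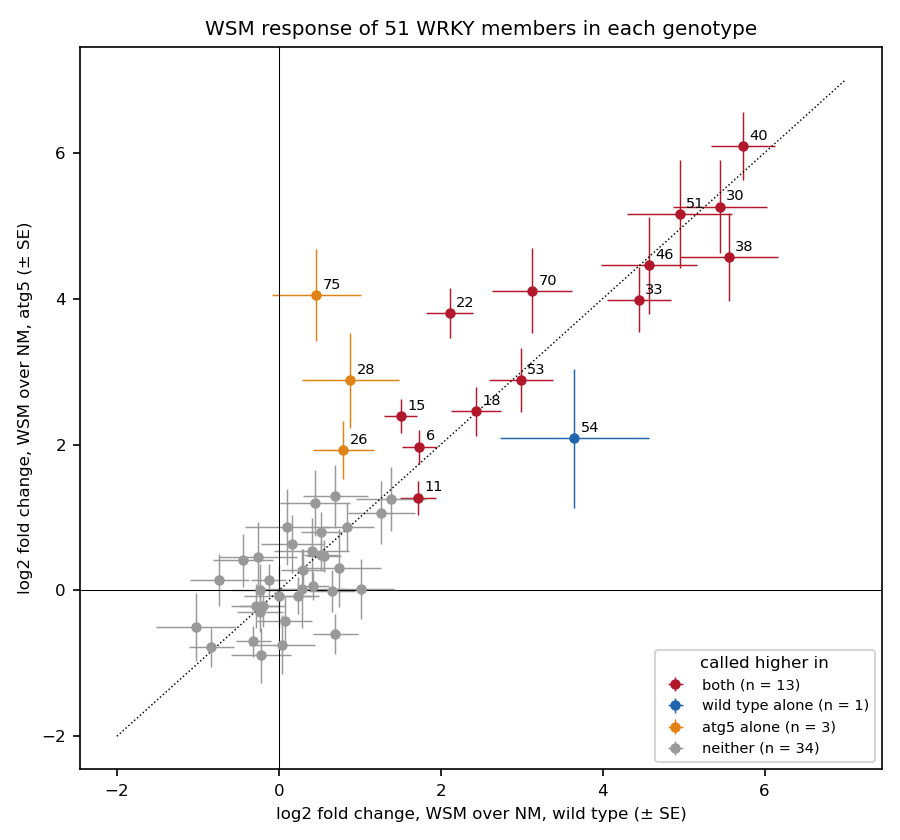
Log2 fold change of WSM over NM in atg5 (vertical axis) and in wild type (horizontal axis) for the 51 measured members, each with its standard error (bars); numbers name the WRKY members called in at least 1 genotype, and the dotted line marks equal values. The 13 members called in both genotypes lie between 1.27 and 6.09 in atg5 and between 1.51 and 5.73 in wild type, while WRKY75 lies at 4.05 in atg5 and 0.46 in wild type.

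**Figure D2:**
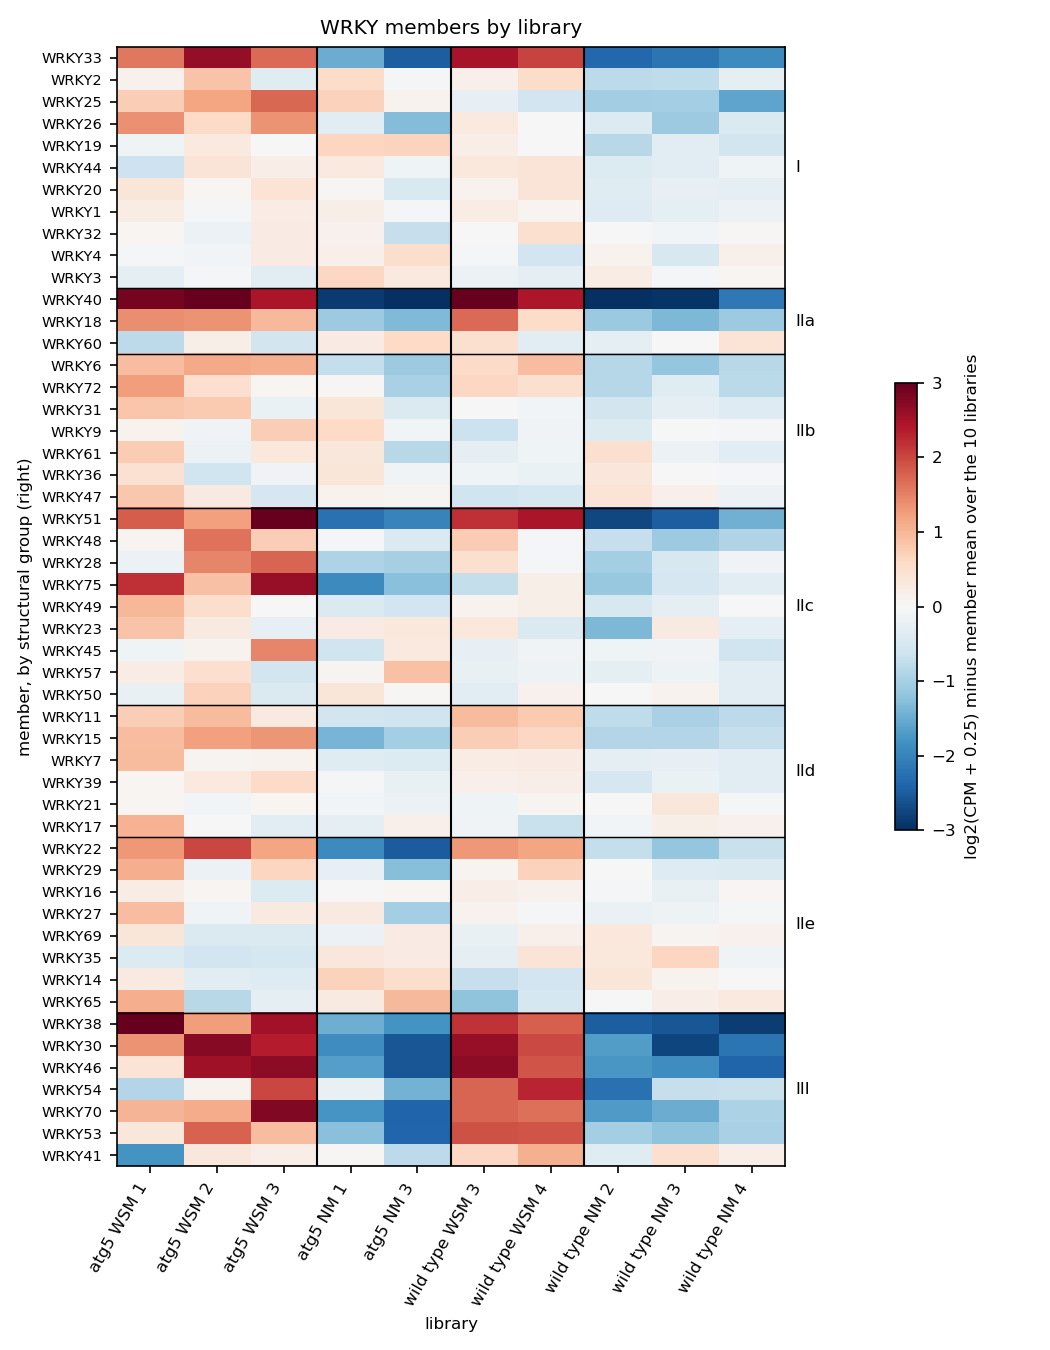
Level of each measured member in each library as log2(CPM + 0.25) minus the member's mean over the 10 libraries, with members in rows by structural group and libraries in columns by group. WRKY33, WRKY40, WRKY51, WRKY22 and most rows of group III are dark in the columns of both media, while most rows of groups I, IIb and IIe are pale.

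The response was uneven between the structural groups. Group III had 5 of its 7 measured members called higher in atg5 and 6 in wild type, with median log2 fold changes of 4.11 and 3.65. Group IIa had 2 of 3 in both genotypes, with medians of 2.46 and 2.44. In group I, 2 of 11 were called in atg5 and 1 in wild type, with medians of 0.06 and 0.66. Group IIe had 1 of 8 in both, with medians of -0.14 and -0.02, and group IIb 1 of 7 in both, with medians of 0.46 and -0.23. Group IId had 2 of 6 in both, with medians of 0.64 and 0.52. Group IIc had 3 of 9 called in atg5 and 1 in wild type, with medians of 1.20 and 0.45, and another 6 of its 15 loci were not listed. No test compared these groups.

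WRKY33 (AT2G38470; chr2:16108235-16110766, plus strand) was the member with the highest level per exon length in WSM in both genotypes. It is required for defence against necrotrophic fungi and for synthesis of the antimicrobial camalexin, and is a substrate of the MAP kinases MPK3 and MPK6. Its transcript stood at 123, 259.7 and 135 CPM in atg5 WSM, against 14.6 and 7.18 CPM in atg5 NM. Wild-type seedlings had 231 and 169 CPM in WSM, against 7.85, 8.79 and 10.8 CPM in NM. All WSM libraries of both genotypes were above all NM libraries. The log2 fold change was 3.98 ± 0.44 (SE) in atg5 (edgeR adjusted p = 0.000589) and 4.45 ± 0.40 in wild type (edgeR adjusted p = 0.000178). The atg5 value was 4.57 without atg5 WSM 1 and 3 and 4.59 without atg5 NM 1. On the scale of mean CPM per kilobase of exon, WRKY33 ranked 1 of 51 in WSM in both genotypes, and 18 in atg5 NM and 19 in wild-type NM. It alone made up 11.5% to 20.5% of the family's CPM in atg5 WSM and 1.88% to 3.40% in atg5 NM, and 17.1% to 19.2% in wild-type WSM and 2.10% to 2.79% in wild-type NM.

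Its closest group I relatives, WRKY25 and WRKY26, act with it in heat tolerance. WRKY26 (AT5G07100) had 15.8, 8.998 and 15.4 CPM in atg5 WSM and 4.66 and 2.28 CPM in atg5 NM, with no overlap, a log2 fold change of 1.92 ± 0.40 (edgeR adjusted p = 0.0157). In wild type WRKY26 had 7.304 and 5.902 CPM in WSM and 4.42, 2.64 and 4.36 CPM in NM, 0.80 ± 0.37 (edgeR adjusted p = 0.235), which is not a call. The atg5 call of WRKY26 was lost when only the atg5 libraries were fitted (adjusted p = 0.0823) and without atg5 WSM 3 (0.0550). Its atg5 value was 1.36 without the libraries with PREP1 counts and 1.51 without atg5 NM 3, fits that leave 1 library in a group. Without atg5 NM 1 the value was 2.54. A fit of the wild-type libraries alone called WRKY26 there (adjusted p = 0.04094), so that fitting each genotype alone turned round which genotype was called. WRKY25 (AT2G30250) had 13.8, 18.9 and 27.5 CPM in atg5 WSM and 13.4 and 8.74 CPM in atg5 NM, and 6.79 and 5.42 CPM in wild-type WSM and 3.84, 3.86 and 2.56 CPM in wild-type NM. The media did not overlap within either genotype, yet neither fold change was called, at 0.87 ± 0.33 in atg5 (edgeR adjusted p = 0.127) and 0.84 ± 0.33 in wild type (edgeR adjusted p = 0.163). WRKY25 was called in wild type when its libraries alone were fitted (0.02928) and in atg5 without atg5 WSM 1 (0.04049).

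The other group I members were not called in either genotype by the fit of all libraries. WRKY1 had 21.7, 17.9 and 21.8 CPM in atg5 WSM and 20.9 and 18.1 CPM in atg5 NM, which overlap, at a log2 of 0.06 ± 0.19 (edgeR adjusted p = 0.874). Its wild-type levels were 21.6 and 19.8 CPM in WSM and 14.2, 15.4 and 16.4 CPM in NM, which do not overlap, at 0.43 ± 0.19 (edgeR adjusted p = 0.2102). WRKY2, a regulator of seed germination and pollen development, showed the same order. It had 3.94, 6.69 and 2.71 CPM in atg5 WSM and 5.36 and 3.495 CPM in atg5 NM (0.02 ± 0.41; edgeR adjusted p = 0.983), and 4.01 and 5.34 CPM in wild-type WSM and 1.96, 2.003 and 2.91 CPM in wild-type NM (1.02 ± 0.41; edgeR adjusted p = 0.170). WRKY44, known as TTG2 and needed for trichomes and the seed coat, had 6.503, 13.4 and 11.7 CPM in atg5 WSM and 12.5 and 9.27 CPM in atg5 NM (-0.01 ± 0.29; edgeR adjusted p = 0.983). Wild-type WRKY44 had 12.8 and 13.4 CPM in WSM and 7.61, 7.96 and 9.18 CPM in NM (0.66 ± 0.28; edgeR adjusted p = 0.198). Thus WRKY1, WRKY2 and WRKY44 had wild-type WSM libraries above all wild-type NM libraries and overlapping media in atg5. None was called in either genotype by the fit of all libraries. The pattern is not particular to them, since WRKY16, WRKY31, WRKY41 and WRKY54 had it too. In wild type, WSM stood above NM without overlap for 31 of the 51 members and 28.8% of all genes. The fit of the wild-type libraries alone called WRKY2 (adjusted p = 0.0198) and WRKY44 (0.01536) higher there.

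Group IIa consists of WRKY18, WRKY40 and WRKY60, which form complexes with each other and restrain basal defence and abscisic acid responses. WRKY40 (AT1G80840; chr1:30383561-30385499, plus strand) had the largest fold change of the 51 measured members in both genotypes. It stood at 90.05, 112 and 67.8 CPM in atg5 WSM, against 1.44 and 1.17 CPM in atg5 NM, a log2 of 6.09 ± 0.47 (edgeR adjusted p = 9.51e-05). In wild type WRKY40 had 119 and 66.7 CPM in WSM, against 1.15, 1.37 and 2.56 CPM in NM, a log2 of 5.73 ± 0.40 (edgeR adjusted p = 5.79e-05). Per exon length it ranked 3 of 51 in atg5 WSM and 42 in atg5 NM, and 2 in wild-type WSM and 39 in wild-type NM.

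WRKY18 (AT4G31800) also rose, by less. It had 107, 103 and 79.6 CPM in atg5 WSM and 19.03 and 16.1 CPM in atg5 NM, a log2 fold change of 2.46 ± 0.34 (edgeR adjusted p = 0.001499). Wild-type levels of WRKY18 were 133 and 59.4 CPM in WSM and 18.6, 15.7 and 18.9 CPM in NM, a log2 of 2.44 ± 0.30 (edgeR adjusted p = 0.000967). The wild-type value was 1.74 without wild-type WSM 3, and still called. WRKY60 (AT2G25000) was the exception of this subgroup. It had 1.77, 3.66 and 2.12 CPM in atg5 WSM, all below the 3.85 and 4.95 CPM in atg5 NM, a log2 of -0.74 ± 0.41 that was not called (edgeR adjusted p = 0.283). In wild type its WSM libraries, at 4.58 and 2.52 CPM, overlapped the NM libraries, at 2.62, 3.22 and 4.36 CPM (0.04 ± 0.41; edgeR adjusted p = 0.967). The difference in response between WRKY60 and its relatives was not tested.

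**Figure D3:**
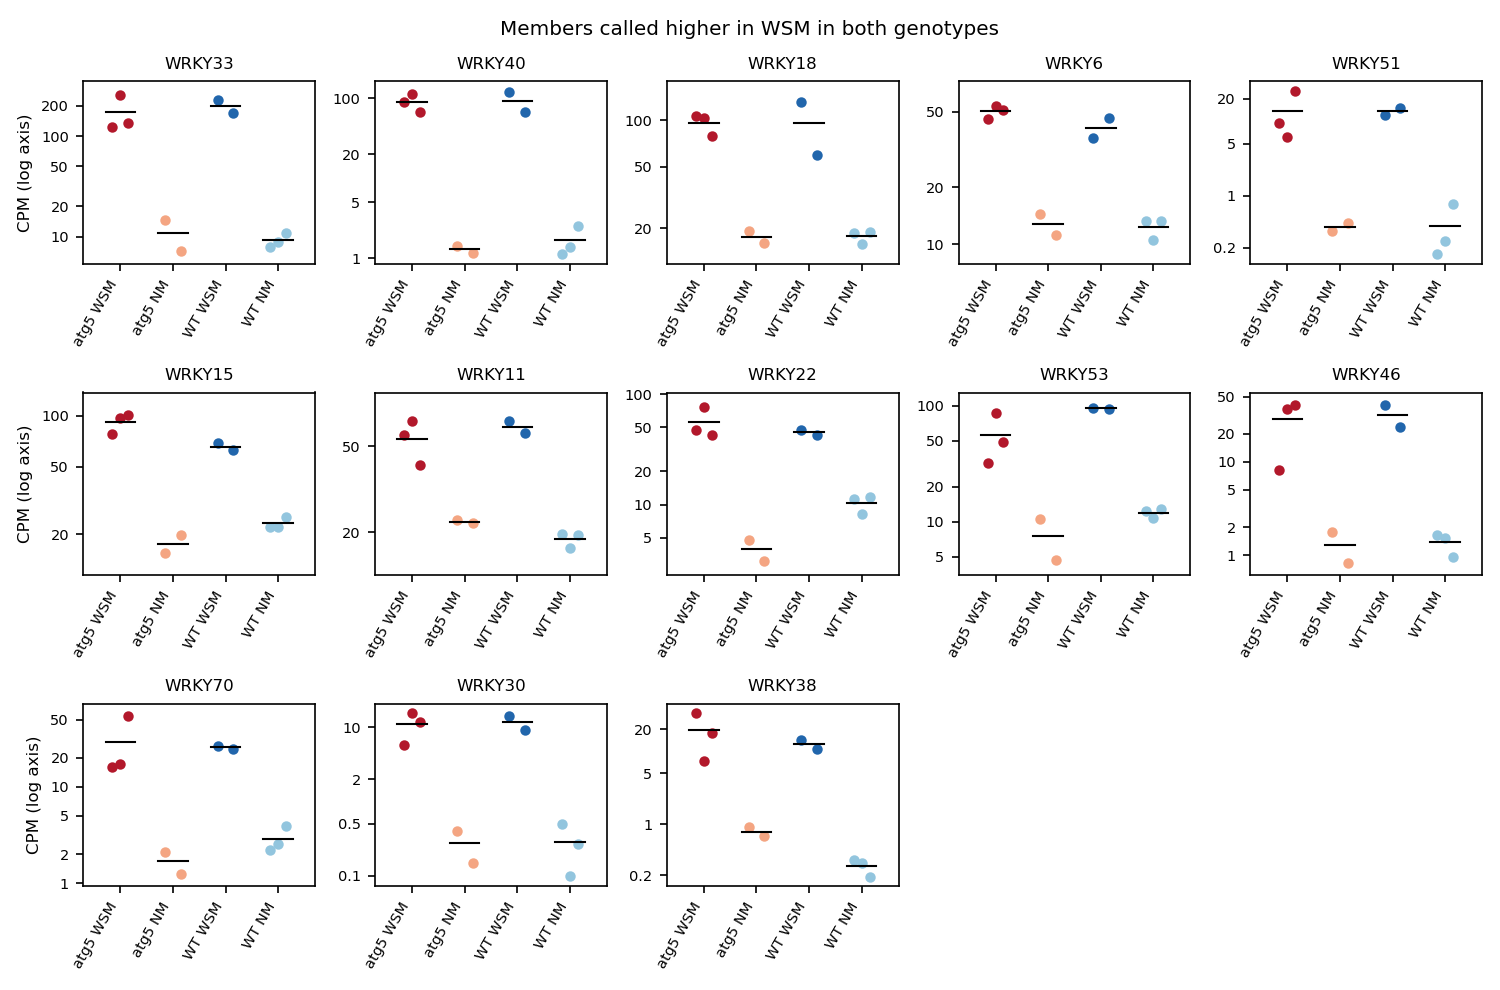
CPM in each library (points, log axis with its own range in each panel) and group means (bars) for the 13 members called higher in WSM in both genotypes, in the order atg5 WSM, atg5 NM, wild-type WSM and wild-type NM. In all panels the WSM points of a genotype stand above its NM points; for WRKY46 the lowest WSM point, 8.28 CPM in atg5, stands apart from the other 4 WSM libraries, at 23.5 to 41.0 CPM.

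Group III contains members tied to salicylic acid signalling and leaf senescence. WRKY53 (AT4G23810; chr4:12392370-12393982, minus strand), an activator of senescence, had 32.3, 87.1 and 48.3 CPM in atg5 WSM and 10.5 and 4.66 CPM in atg5 NM (2.88 ± 0.44; edgeR adjusted p = 0.00315). It had 96.3 and 94.3 CPM in wild-type WSM and 12.3, 10.8 and 12.8 CPM in wild-type NM (2.99 ± 0.40; edgeR adjusted p = 0.00141). In atg5 it was 3.51 without atg5 WSM 1 and 3 and 3.59 without atg5 NM 1. The opposite-strand gene AT4G23800 covers 20.5% of its exons, and its level is uncertain to that extent. WRKY41, its close relative, was not called, at 0.31 ± 0.54 in atg5 and 0.74 ± 0.51 in wild type, and AT4G11080 on the other strand covers 41.7% of its exons.

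WRKY70 (AT3G56400; chr3:20908711-20910623, minus strand), a factor between the salicylic and jasmonic acid pathways that delays senescence, stood at 15.96, 17.2 and 54.5 CPM in atg5 WSM and 2.11 and 1.26 CPM in atg5 NM. Its wild-type levels were 26.6 and 25.02 CPM in WSM and 2.21, 2.59 and 3.903 CPM in NM. The log2 fold change was 4.11 ± 0.58 in atg5 (edgeR adjusted p = 0.00198) and 3.13 ± 0.49 in wild type (edgeR adjusted p = 0.00373), with no overlap in either. The atg5 WSM 3 library was the highest, and the atg5 value of WRKY70 was 3.28 without it and 3.32 without atg5 WSM 1 and 3. WRKY54 (AT2G40750), which acts partly redundantly with WRKY70, was far less abundant. It had 0.394, 1.02 and 4.48 CPM in atg5 WSM, which overlapped the 0.7704 and 0.194 CPM in atg5 NM (2.08 ± 0.96; edgeR adjusted p = 0.201). In wild type WRKY54 had 3.704 and 5.57 CPM in WSM, 72 and 150 counts, against 0, 0.488 and 0.497 CPM in NM, 0, 10 and 13 counts. Its wild-type fold change of 3.65 ± 0.92 was called (edgeR adjusted p = 0.0418), but not without any 1 of the 5 wild-type libraries (adjusted p = 0.111 to 0.206).

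WRKY46 (AT2G46400), which acts in drought and brassinosteroid responses, had 8.28, 36.95 and 41.05 CPM in atg5 WSM and 1.77 and 0.825 CPM in atg5 NM (4.46 ± 0.67; edgeR adjusted p = 0.00263). Its wild-type WSM libraries had 40.7 and 23.5 CPM and its wild-type NM libraries 1.64, 1.51 and 0.957 CPM (4.58 ± 0.59; edgeR adjusted p = 0.00118). The first atg5 WSM library, the shallowest, was the lowest of the WSM libraries and still above all NM libraries. Without atg5 NM 1 the atg5 value of WRKY46 was 5.14.

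WRKY30 and WRKY38 were close to the floor in NM. WRKY38 (AT5G22570), known to limit basal defence, had 33.5, 7.38 and 17.99 CPM in atg5 WSM and 0.904 and 0.6796 CPM in atg5 NM (4.57 ± 0.61; edgeR adjusted p = 0.00133). In wild-type WSM it had 14.2 and 10.9 CPM and in wild-type NM 0.327, 0.293 and 0.191 CPM, the last from 4, 6 and 5 counts (5.56 ± 0.61; edgeR adjusted p = 0.000434). WRKY30 (AT5G24110), a gene induced early by stress, had 5.71, 15.5 and 11.9 CPM in atg5 WSM and 0.402 and 0.146 CPM in atg5 NM (5.26 ± 0.64; edgeR adjusted p = 0.000824). Wild-type WRKY30 had 14.2 and 9.13 CPM in WSM and 0.491, 0.0977 and 0.268 CPM in NM, the last from 6, 2 and 7 counts (5.45 ± 0.58; edgeR adjusted p = 0.000369). With so few NM counts the size of these folds is loosely set: the 95% intervals for wild type were 4.23 to 6.89 for WRKY38 and 4.18 to 6.72 for WRKY30 on the log2 scale. In atg5, WRKY38 was at 3.97 without atg5 WSM 1, still called, and at 3.19 without atg5 WSM 1 and 3. WRKY30 was at 6.22 without atg5 NM 1.

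Group IId proteins bind calmodulin, and WRKY11 and WRKY17 are related repressors of basal resistance. WRKY15 (AT2G23320; chr2:9924886-9926372, plus strand), a regulator of growth under salt and oxidative stress, had the highest level per exon length of all members in NM, ranking 1 of 51 in both genotypes, and ranked 2 in atg5 WSM and 4 in wild-type WSM. It stood at 78.2, 96.7 and 102 CPM in atg5 WSM and 15.4 and 19.9 CPM in atg5 NM (2.39 ± 0.23; edgeR adjusted p = 0.000269). Wild-type WRKY15 had 68.8 and 62.9 CPM in WSM and 22.2, 22.2 and 25.2 CPM in NM (1.51 ± 0.21; edgeR adjusted p = 0.00159). WRKY11 (AT4G31550) rose as well. It had 55.96, 65.4 and 40.7 CPM in atg5 WSM and 22.7 and 22.1 CPM in atg5 NM (1.27 ± 0.23; edgeR adjusted p = 0.00832), and 65.1 and 57.6 CPM in wild-type WSM and 19.6, 17.0 and 19.4 CPM in wild-type NM (1.72 ± 0.22; edgeR adjusted p = 0.00117). Its atg5 call was lost when only the atg5 libraries were fitted (adjusted p = 0.120) and without atg5 NM 3 (0.0676). WRKY17, which ranked 2 of 51 per exon length in NM in both genotypes, was not called, at 0.41 ± 0.37 in atg5 and -0.44 ± 0.37 in wild type.

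In group IIe, WRKY22 (AT4G01250; chr4:522530-524249, minus strand) was the called member of 8. It and WRKY29 act downstream of the MAP kinase cascade that bacterial flagellin triggers. WRKY22 had 47.1, 76.4 and 43.01 CPM in atg5 WSM and 4.82 and 3.11 CPM in atg5 NM (3.80 ± 0.35; edgeR adjusted p = 0.000238). It had 46.96 and 42.9 CPM in wild-type WSM and 11.3, 8.305 and 11.7 CPM in wild-type NM (2.11 ± 0.29; edgeR adjusted p = 0.00162). The WSM libraries of both genotypes overlapped, and the atg5 NM libraries lay below all others. WRKY29 had 1.29 ± 0.43 in atg5 and 0.70 ± 0.40 in wild type, neither called (edgeR adjusted p = 0.0901 and 0.331). DESeq2 called WRKY29 higher in atg5 (DESeq2 adjusted p = 0.0270), and the fit of the wild-type libraries alone called it there (0.0376). WRKY14 had every WSM library below every NM library in both genotypes and log2 fold changes of -0.78 ± 0.27 and -0.83 ± 0.28, short of the threshold in both (edgeR adjusted p = 0.0964 and 0.101). WRKY14 was called lower in wild type by DESeq2 (adjusted p = 0.0485), by the fit of the wild-type libraries alone (0.01385), without atg5 WSM 1 and 3 (0.0372) and without atg5 WSM 1 (0.03759). In atg5 it was called lower without the 2 libraries richest in rRNA regions (0.03623) and without atg5 WSM 1 (0.0204).

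WRKY6 (AT1G62300; chr1:23016569-23019494, minus strand), which acts in senescence and phosphate transport, was the called member of group IIb. Its levels were 45.9, 53.5 and 51.3 CPM in atg5 WSM and 14.5 and 11.2 CPM in atg5 NM (1.97 ± 0.23; edgeR adjusted p = 0.000761). Wild-type levels were 36.2 and 46.2 CPM in WSM and 13.2, 10.6 and 13.3 CPM in NM (1.74 ± 0.21; edgeR adjusted p = 0.000834). No WSM library of WRKY6 overlapped an NM library.

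Group IIc, the largest in the list, held members of unlike behaviour. WRKY51 (AT5G64810; chr5:25908247-25909881, plus strand), which with WRKY50 represses jasmonic acid responses, had 9.46, 6.196 and 25.3 CPM in atg5 WSM and 0.335 and 0.437 CPM in atg5 NM (5.16 ± 0.75; edgeR adjusted p = 0.00221). In wild type WRKY51 had 12.3 and 14.8 CPM in WSM and 0.164, 0.244 and 0.765 CPM in NM (4.95 ± 0.65; edgeR adjusted p = 0.00126). WRKY51 had 10 and 9 counts in atg5 NM and 2, 5 and 20 in wild-type NM, so the size of its folds is loosely set. Its atg5 value was 4.31 without atg5 WSM 3 and 4.01 without atg5 WSM 1 and 3, and its wild-type value 5.96 without wild-type NM 4. Its partner in the lysine signature, WRKY50, had 1.97, 3.99 and 1.69 CPM in atg5 WSM and 3.12 and 2.43 CPM in atg5 NM, and 1.85 and 2.598 CPM in wild-type WSM and 2.37, 2.54 and 1.798 CPM in wild-type NM. Those groups overlap, and its log2 fold changes were -0.08 ± 0.43 in atg5 and 0.00 ± 0.43 in wild type. The difference between WRKY51 and WRKY50 was not tested.

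WRKY75 (AT5G13080; chr5:4149738-4151201, minus strand), a regulator of phosphate acquisition, root hairs and senescence, was called in atg5. It had 12.02, 4.68 and 16.3 CPM in atg5 WSM and 0.469 and 0.874 CPM in atg5 NM (4.05 ± 0.64; edgeR adjusted p = 0.00357). In wild type the media overlapped, at 1.39 and 2.82 CPM in WSM and 0.982, 1.66 and 1.88 CPM in NM (0.46 ± 0.54; edgeR adjusted p = 0.652). Without atg5 WSM 1 and 3 the atg5 value was 2.83, from atg5 WSM 2 alone. WRKY28 (AT4G18170), an activator of salicylic acid synthesis, had 0.788, 2.999 and 3.65 CPM in atg5 WSM, 4, 91 and 93 counts, and 0.368 and 0.3398 CPM in atg5 NM (2.88 ± 0.65; edgeR adjusted p = 0.0223). Its wild-type levels were 1.39 and 0.891 CPM in WSM and 0.327, 0.586 and 0.842 CPM in NM (0.88 ± 0.59; edgeR adjusted p = 0.404). The atg5 call of WRKY28 was lost when only the atg5 libraries were fitted (adjusted p = 0.133) and without atg5 WSM 3 (0.0749), atg5 NM 1 (0.0799) or atg5 NM 3 (0.138). WRKY57, which confers drought tolerance when activated, had 9.26, 11.3 and 5.303 CPM in atg5 WSM and 8.41 and 14.7 CPM in atg5 NM (-0.42 ± 0.33; edgeR adjusted p = 0.467), and 6.79 and 7.09 CPM in wild-type WSM and 6.46, 7.13 and 6.199 CPM in wild-type NM (0.07 ± 0.34; edgeR adjusted p = 0.925), with overlap in both.

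Of the members called in neither genotype there were 34. Their log2 fold changes ran from -0.89 to 1.29 in atg5 and from -1.02 to 1.39 in wild type, and their lowest adjusted p were 0.0709 and 0.0858. At an unadjusted p under 0.05 there were 26 of the 51 members in atg5, against 25.2% of all genes, and 24 in wild type, against 22.5%. Nearest to the threshold were WRKY3 in atg5 (-0.70 ± 0.21) and WRKY48 in wild type (1.39 ± 0.43). The WRKY48 response in atg5 was 1.25 ± 0.44 (edgeR adjusted p = 0.107), and WRKY72 had 1.07 ± 0.43 in atg5 and 1.27 ± 0.41 in wild type (edgeR adjusted p = 0.149 and 0.0954). DESeq2 called WRKY48 higher in atg5 (DESeq2 adjusted p = 0.0459) and in wild type (0.0309), and WRKY72 higher in wild type (0.0413). Median levels of the 34, in mean CPM per kilobase of exon, were 4.17 in atg5 WSM and 4.37 in atg5 NM, and 3.31 in wild-type WSM and 3.62 in wild-type NM. For the 13 shared members the medians on that scale were 29.7 in atg5 WSM and 2.99 in atg5 NM, and 33.7 in wild-type WSM and 4.52 in wild-type NM. In NM the ranges of both classes overlapped, from 0.212 to 13.7 for the 13 and from 0.772 to 13.4 for the 34 in atg5.

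The WSM response was then compared between the genotypes through the difference of the fold changes, atg5 minus wild type. It was called for 0 of 51 members and 0 of 19714 genes by edgeR (0% called), with 5 members at an unadjusted p under 0.05 (9.8%), a smaller share than the 15.1% of all genes. DESeq2 called WRKY22 and WRKY75, and 2.1% of all genes. WRKY75 had the largest difference, 3.58 ± 0.82 (95% interval 1.77 to 5.39; edgeR adjusted p = 0.194), then WRKY28 at 2.00 ± 0.88 and WRKY22 at 1.69 ± 0.43 (95% interval 0.76 to 2.63; edgeR adjusted p = 0.198). WRKY15 had 0.89 ± 0.30 (95% interval 0.23 to 1.54). Without atg5 WSM 1 and 3 the difference was 2.36 for WRKY75, from a single atg5 WSM library. For several members called in both genotypes the intervals were wide. The difference for WRKY33 was -0.46 ± 0.53 with a 95% interval of -1.61 to 0.69, for WRKY40 0.36 ± 0.53 with -0.80 to 1.52, and for WRKY51 0.21 ± 0.96 with -1.90 to 2.31. Those intervals do not show that the responses were alike. WRKY54, called in wild type alone, had a difference of -1.57 ± 1.31 (edgeR adjusted p = 0.595), and WRKY26, called in atg5 and not in wild type by the same fit, one of 1.13 ± 0.54 (edgeR adjusted p = 0.352).

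Between the genotypes within a medium, 0 of 51 members were called by edgeR in NM, where 29 of 19714 genes (0.147%) were called, 0.0913% higher and 0.0558% lower, and 0 in WSM, where 7 genes (0.0355%) were, 0.00507% higher and 0.0304% lower. At an unadjusted p under 0.05 there were 6 members in NM (11.8%, against 13.9% of all genes) and 5 in WSM (9.8%, against 12% of all genes), shares near or below the background. DESeq2 called WRKY19, WRKY22 and WRKY25 in NM (3.02% of all genes) and WRKY25 and WRKY75 in WSM (1.74%). WRKY25, whose levels are given above, stood higher in atg5 than in wild type in both media without overlap, by 1.73 ± 0.34 on the log2 scale in WSM (edgeR adjusted p = 0.235) and 1.70 ± 0.33 in NM (edgeR adjusted p = 0.0822). WRKY75 had a genotype difference of 2.36 ± 0.56 in WSM (edgeR adjusted p = 0.261) and -1.22 ± 0.61 in NM (edgeR adjusted p = 0.4002), and WRKY22 one of 0.31 ± 0.29 in WSM and -1.38 ± 0.31 in NM (edgeR adjusted p = 0.105). WRKY19 (AT4G12020), whose protein joins a WRKY domain to a disease resistance receptor and a kinase, had 7.24 and 7.43 CPM in atg5 NM, above the 2.45, 3.62 and 3.02 CPM in wild-type NM (1.26 ± 0.28; edgeR adjusted p = 0.0995).

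Genotypes did not overlap in NM for 11 members higher and 7 lower in atg5, where 18.9% and 19.0% of all genes did so, and in WSM for 7 higher and 3 lower, against 13.6% and 13.8%. The median genotype difference of the 51 members was 0.16 in WSM and 0.10 in NM, against 0.03 over all genes in each. Transcripts of seed storage proteins differed between the genotypes in the same libraries. CRA1 had 3.76 to 83.0 CPM in the 5 atg5 libraries, against 941.5 to 1423 CPM in all 5 of wild type, and CRU3 had 2.91 to 36.7 CPM, against 497.9 to 677.3 CPM, with 0 of the 2 called in either medium. The part of these transcripts, and of the PREP1 state, in the genotype values was not tested. The genotype differences in NM compare NM libraries alone, so leaving out atg5 WSM 1 and 3 cannot check them. Their values were then bound to stay nearly the same, at 1.26 for WRKY19, 1.71 for WRKY25 and -1.38 for WRKY22. In WSM, WRKY75 had a genotype difference of 1.13 without atg5 WSM 1 and 3, from a single atg5 WSM library.

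**Figure D4:**
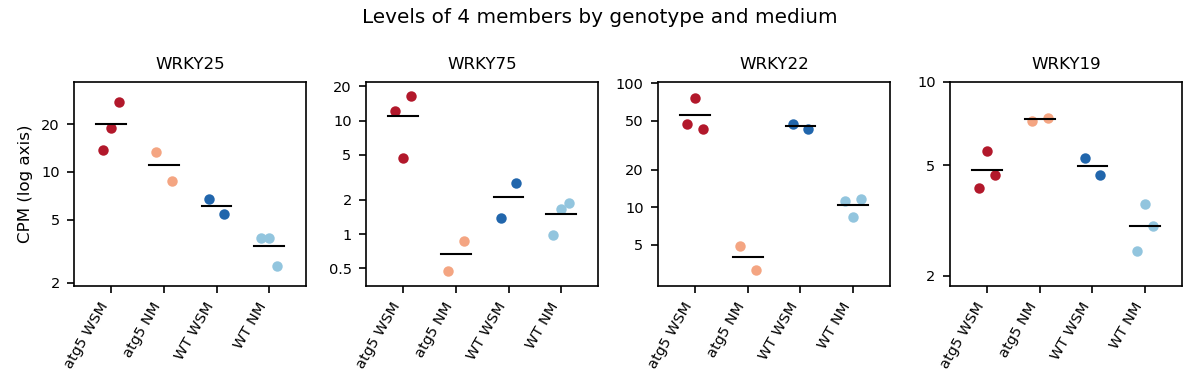
CPM in each library (points, log axis with its own range in each panel) and group means (bars) for WRKY25, WRKY75, WRKY22 and WRKY19. WRKY25 points of atg5, at 8.74 to 27.5 CPM, stand above those of wild type, at 2.56 to 6.79 CPM; WRKY22 points of atg5 NM, at 4.82 and 3.11 CPM, are the lowest of its panel.

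Cores of the W-box were counted on both strands of the 300 bases before each annotated gene start. Of the 60 members, 38 (63.3%) held at least 1 TTGAC, 19 (31.7%) at least 2 and 8 (13.3%) at least 3. Among 27443 nuclear protein-coding genes the shares were 50.4%, 17.9% and 5.07%. By response, 12 of the 13 members called in both genotypes (92.3%) held at least 1 core, 3 of the 4 called in a single genotype, 17 of the 34 called in neither (50.0%) and 6 of the 9 unlisted (66.7%). At least 2 cores were found in 6 of the 13 and in 9 of the 34. The longer forms TTGACC and TTGACT, which are part of the TTGAC matches, gave another picture: 25 of 60 members (41.7%) held at least 1, against 32.3% of all genes, with 5 of the 13 (38.5%) and 14 of the 34 (41.2%). These shares are descriptions of letters in a window, with no test. WRKY18, with 0 cores in the window, was called in both genotypes, while WRKY29 and WRKY32, with 4 cores each, were called in neither.

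**Figure D5:**
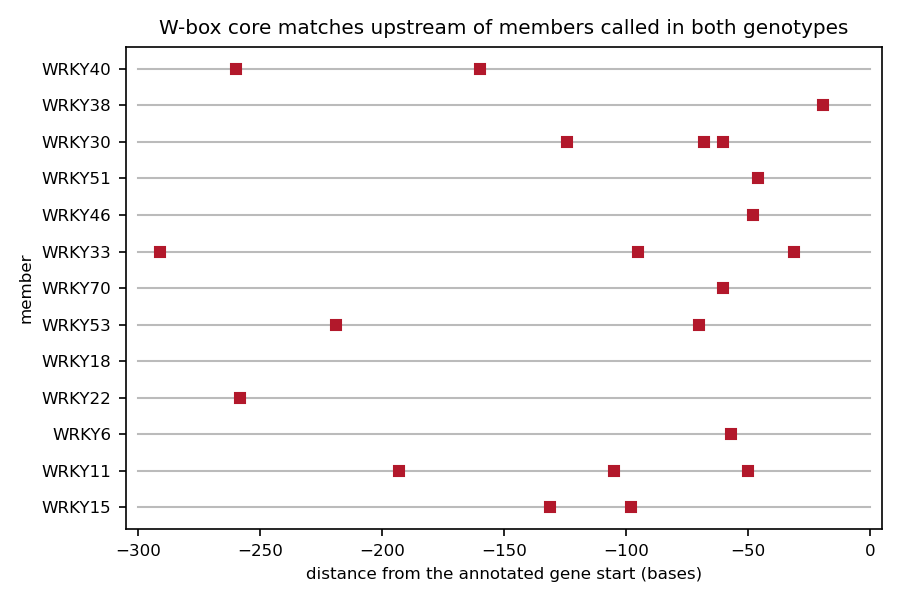
Position of each TTGAC core, on either strand (squares, placed by the core's first base), in the 300 bases before the annotated gene start for the 13 members called in both genotypes, ordered from the largest wild-type log2 fold change at the top. WRKY33, WRKY30 and WRKY11 show 3 cores each and WRKY18 shows none.

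Genes that act with WRKY proteins were read from a list of kinases, partners and targets. Of 8 measured MAP kinases and kinase kinases, MPK3 was called, higher in both genotypes, and 0 were lower. The genome-wide background of higher calls by the same fit was 5.22% in atg5 and 3.27% in wild type. For lower calls the background was 2.64% and 2.62%. Whether these short lists exceed the background was not tested. MPK3 had 73.1, 114 and 67.9 CPM in atg5 WSM and 14.4 and 9.27 CPM in atg5 NM (2.84 ± 0.32; edgeR adjusted p = 0.000598), and 106 and 78.5 CPM in wild-type WSM and 15.5, 13.4 and 13.2 CPM in wild-type NM (2.72 ± 0.28; edgeR adjusted p = 0.000351). MPK6 and MPK4, the other kinases known to act on WRKY33 or its complex, had -0.58 ± 0.29 and 0.42 ± 0.20 in atg5 and -0.57 ± 0.30 and -0.22 ± 0.20 in wild type, not called.

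VQ proteins are small cofactors that bind WRKY domains. Of 8 measured, 4 were called higher in atg5 and 2 in wild type, and 0 lower, with the background as given for the kinases. SIB1, a partner of WRKY33, had 1.18, 2.87 and 6.09 CPM in atg5 WSM and 0 and 0.0971 CPM in atg5 NM, and 3.29 and 3.15 CPM in wild-type WSM and 0.164, 0 and 0.0765 CPM in wild-type NM. VQ10 had 0.788, 1.25 and 2.55 CPM in atg5 WSM and 0.201 and 0 CPM in atg5 NM, and 1.65 and 1.52 CPM in wild-type WSM and 0 counts in all wild-type NM libraries. Both were called in both genotypes, and with so few NM counts their folds are not given. MKS1, which links MPK4 to WRKY33, and MVQ1 were called in atg5, at 1.61 ± 0.30 and 0.99 ± 0.21 (edgeR adjusted p = 0.00817 and 0.0165). In wild type they had 0.28 ± 0.28 and -0.08 ± 0.20, and their differences between genotypes, 1.33 ± 0.40 and 1.07 ± 0.29, were not called (edgeR adjusted p = 0.221 and 0.200).

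Of 12 measured targets and defence genes, 4 were higher and 1 lower in atg5, and 5 higher and 0 lower in wild type. The background is again that given for the kinases. CBP60G, a regulator of salicylic acid synthesis, had 2.76, 8.602 and 13.8 CPM in atg5 WSM and 0.06699 and 0.0971 CPM in atg5 NM, and 9.21 and 7.16 CPM in wild-type WSM and 0.164, 0.195 and 0.344 CPM in wild-type NM, and was called in both. ACS6, an ethylene synthesis gene, rose by 3.41 ± 0.57 in atg5 and 3.48 ± 0.50 in wild type. CYP81F2, of indole glucosinolate metabolism, rose by 3.60 ± 0.60 and 2.33 ± 0.52. GRX480 was also called higher in both genotypes. Its log2 fold changes were 5.44 ± 0.71 in atg5 and 5.04 ± 0.64 in wild type (edgeR adjusted p = 0.00123 and 0.00109). It had 51.4, 12.95 and 14.1 CPM in atg5 WSM and 0.536 and 0.631 CPM in atg5 NM. In wild type it had 14.04 and 11.9 CPM in WSM and 0.654, 0.391 and 0.230 CPM in NM. At such NM levels the size of its folds is loosely set. PAD3, the camalexin gene that WRKY33 binds, had 2.76, 2.77 and 4.71 CPM in atg5 WSM and 3.28 and 1.21 CPM in atg5 NM, which overlap (0.61 ± 0.50; edgeR adjusted p = 0.481). Its wild-type levels were 2.98 and 2.86 CPM in WSM and 1.06, 2.296 and 2.41 CPM in NM (0.57 ± 0.49; edgeR adjusted p = 0.516). PR1, the marker of salicylic acid responses, had 0.394, 0.132 and 0.314 CPM in atg5 WSM and 0.938 and 1.84 CPM in atg5 NM, and was called lower there (-2.48 ± 0.60; edgeR adjusted p = 0.0305). At levels this close to the floor the size of that fold is loosely set (95% interval -3.8 to -1.16). In wild type PR1 had -0.96 ± 0.54 (edgeR adjusted p = 0.3198). The autophagy proteins ATG18A and NBR1, the first of which binds WRKY33, had 0 of 2 called in any comparison, with 0.04 ± 0.37 and -0.56 ± 0.28 in atg5 and 0.21 ± 0.37 and -0.31 ± 0.29 in wild type.

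The authors' deposited table held adjusted p-values under 0.05 for 16 members higher and 0 lower in atg5, and 24 higher and 3 lower in wild type. Over all genes of the authors' deposited table the shares were 4.03% higher and 1.03% lower in atg5, and 12.3% higher and 14.9% lower in wild type. The authors' deposited table marked 12 members as changed in atg5, where 2.13% of all genes were marked higher, and 11 in wild type, where 1.97% were, and all of these members were higher in WSM. For WRKY40 the authors' deposited table gave a log2 fold change of 6.11 ± 0.40 (their SE) in atg5 and 5.75 ± 0.54 in wild type, and for WRKY33 4.002 ± 0.48 and 4.43 ± 0.20. WRKY75 is marked in atg5 (4.06 ± 0.66) and not in wild type (0.46 ± 0.49) in the authors' deposited table.

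The 9 loci listed in neither table were WRKY8, WRKY10, WRKY12, WRKY13, WRKY42, WRKY43, WRKY55, WRKY56 and WRKY71. Of these, 6 belong to group IIc, and the others to groups I (WRKY10), IIb (WRKY42) and III (WRKY55). WRKY10, known as MINI3, acts in the endosperm of developing seeds, and WRKY12 and WRKY13 act in the stem. Nothing is said here of their levels.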

How the data were processed

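Messenger RNA from whole seedlings was sequenced with a stranded library kit, per the labels' protocols. The submitters' processing notes name the tools bcl2fastq, Bowtie2, bedtools, DESeq2, without versions, and the genome TAIR10. For each genotype the authors deposited a table of raw read counts, with 10 count columns in all for 12 labelled samples. Log2 fold changes and p-values computed by the authors stand beside them, per the file headers. The 10 columns of normalized values were not used. Columns were given their group from genotype and medium in their names, and libraries keep the number of their column, which does not match the titles.

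A single quasi-likelihood model of edgeR 4.0.16 (with limma 3.58.1 under R 4.3.3) was fitted to the 19714 genes present in both tables, all of which passed filterByExpr. It used TMM factors and 4 groups, with 6 residual degrees of freedom. The biological coefficient of variation was 28.2%. The 5 contrasts were tested with Benjamini-Hochberg adjustment over all genes, and an adjusted p under 0.05 is a call. The SE of a log2 fold change comes from the F statistic, and intervals are at 95%. The script was tested on simulated data. CPM uses TMM-scaled totals, and levels between genes are compared per kilobase of exon in TAIR10.1. In effect the counts do not use strand, so 5 listed members with over 10% of their exons in an opposite-strand gene are uncertain: WRKY29, WRKY41, WRKY53, WRKY61 and WRKY69.

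The members, the lists and the named genes were chosen with earlier results of these data known. Values per library are given for every called member, for the member of each structural group with the highest level per length, and for WRKY1, WRKY2, WRKY6, WRKY18, WRKY25, WRKY26, WRKY33, WRKY40, WRKY44, WRKY46, WRKY53, WRKY54, WRKY57, WRKY60, WRKY70 and WRKY75. WRKY19, WRKY50 and others outside this rule were chosen after their values were seen. Of each list of partners at most 5 called genes are named. Alternatives were DESeq2 1.42.0, RLE factors, no filter, only the groups compared, no rRNA-region genes (31 genes), leaving out doubted libraries or each library in turn, a length correction and the column number as a block. Members listed in a single table were to be fitted apart, and there were 0 such members.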

Additional observations from a re-analysis of the deposited data

Results flagged for a closer look

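WRKY19 was singled out because the genotypes moved in opposite directions without overlap. Separation of the media is common among all genes. In atg5, 16.6% of all genes had every WSM library below every NM library. In wild type, 28.8% had every WSM library above every NM library. The share of genes with both was not counted, so the pattern of WRKY19 may not be unusual. Its atg5 WSM libraries, at 4.14, 5.64 and 4.60 CPM, lay below the atg5 NM libraries, at 7.24 and 7.43 CPM, while its wild-type WSM libraries, at 5.30 and 4.60 CPM, lay above the wild-type NM libraries, at 2.45, 3.62 and 3.02 CPM. The difference of the responses, atg5 minus wild type, was -1.29 on the log2 scale with an SE of 0.39 and did not pass the adjustment over all genes (edgeR adjusted p = 0.224).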

How the results depend on the processing

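Across 19 settings there were 13 to 20 calls of members in atg5 and 13 to 27 in wild type, with member medians of 0.40 to 0.85 and 0.45 to 0.61. The share of all genes called moved too. In wild type 3.27% were called higher and 2.62% lower by the main fit, against 14.1% and 15.3% by the fit that gave 27. Shares for leaving out 1 library and for the replicate block are not given. Counts that moved by over 1.5 times were as follows. Fitting only the groups compared gave 24 members higher and 3 lower in wild type, and 1 higher in atg5 than in wild type in NM. DESeq2 gave 1 lower in atg5, 1 lower in wild type, 2 with a higher response in atg5, 2 higher and 1 lower in atg5 NM against wild-type NM, and 2 higher in WSM. Without atg5 WSM 1 and 3 (the PREP1 libraries) only 1 atg5 WSM library remains, so call counts of that fit are not listed here. With the 2 rRNA-rich libraries left out there was 1 lower in atg5. Leaving out 1 library at a time gave 13 to 18 higher and 0 to 2 lower in atg5, 13 to 16 higher and 0 to 1 lower in wild type, 0 to 1 for the higher responses in atg5, and 0 to 2 and 0 to 1 higher between genotypes in NM and WSM.

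Over all 51 members and 19 settings, 0 called values changed sign, while 15 of 35 uncalled members in atg5 and 12 of 37 in wild type did so under at least 1 setting. Values follow for the uncalled members of the named-gene rule. The log2 of WRKY44 in atg5 was 0.00 with DESeq2 and with only the groups compared, 0.23 without the rRNA-rich libraries, 0.30 without the PREP1 libraries, 0.04 after length correction and -0.22 to 0.22 without 1 library. WRKY1 in atg5 was -0.13 without the PREP1 libraries and -0.03 to 0.17 without 1 library, WRKY2 in atg5 -0.48 to 0.37 and WRKY57 in atg5 -0.77 to 0.03 without 1 library. In wild type WRKY60 was -0.10 without the rRNA-rich libraries and -0.44 to 0.42 without 1 library, and WRKY75 -0.15 to 0.87. The causes were not tested.

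Whether the column numbers pair the samples was not settled. Same-numbered libraries deviated together with r of -0.26, -0.03, 0.10 and 0.15. With 2 to 3 libraries per group these values cannot exclude pairing. With the number as a replicate block there were 14 calls in atg5, without WRKY11 and WRKY28, and 13 in wild type, without WRKY54, and WRKY2 in atg5 was at -0.20. Depth limits members with few counts in NM, among them WRKY54, WRKY28, WRKY30, WRKY38 and WRKY51.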
